A study of Mus musculus with 44 samples.

Results

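The miR-379/410 cluster is a run of miRNA hairpins in the distal, Mirg-side portion of the imprinted Dlk1-Dio3 domain on mouse chromosome 12. Its 42 mature miRNAs listed here were chosen by name, and all 42 had counts among the 1978 mature miRNAs of the count table. They were measured by small RNA sequencing in 44 hypothalamus libraries, each from a C57Bl/6J mouse. The AM132 group (16 libraries) held mice made obese by 11 weeks of high fat diet and then injected with a locked nucleic acid oligonucleotide of 16 nt complementary to miR-132. The AM608 group (16 libraries) held mice made obese in the same way and injected with a 15 nt oligonucleotide against miR-608, a primate miRNA for which mice have no predicted complementary sequence. Both oligonucleotides were given intravenously at 3.3 mg/kg on 3 consecutive days, and tissue was taken 7 days after treatment. The RCD group (12 libraries) held lean mice of matched age on regular chow, which are not described as injected. The ages are not given. The RCD comparisons hold diet and injection together, and these cannot be told apart. The labels name 4 batches. Batches 1 and 3 each contain 4 AM132 and 4 AM608 libraries. In batch 2 all groups are present, with 8 libraries of AM132, 8 of AM608 and 4 of RCD, while batch 4 is made up of the remaining 8 RCD libraries.

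The miRNAs of the Dlk1-Dio3 domain are made from long non-coding transcripts of the maternally inherited chromosome and are among the most brain-enriched miRNAs of placental mammals. Each hairpin can release a mature strand from its 5′ arm (5p) and from its 3′ arm (3p), and a mature miRNA finds its targets mainly through its seed, bases 2 to 8. In neurons, activity drives transcription of the cluster through Mef2 factors, and miR-134-5p, its best known product, restrains dendritic spine size and promotes dendrite outgrowth in rodent neurons.

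The 42 miRNAs come from 31 hairpins on the plus strand of GRCm38, from Mir379 to Mir410, at chr12:109709060-109743795, a span of 34.7 kb. In the GENCODE annotation Mirg, a long non-coding RNA gene, lies at chr12:109729764-109749460. By that annotation 20 hairpins lie before Mirg, 7 overlap a Mirg exon and 4 lie in a Mirg intron, and 11 hairpins contributed both arms. RefSeq (GRCm38.p6) gave a mature sequence for 39 of the 42 and for the others, miR-376c-3p, miR-485-5p and miR-487b-3p, only the names are given. The sequences below are the most abundant members, with their closest relatives, and the members that differed most between batches. Capitals mark the seed, all run 5′ to 3′, and the prefix mmu (mouse) of the table's names is left out elsewhere.
mmu-miR-381-3p: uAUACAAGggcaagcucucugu
mmu-miR-300-3p: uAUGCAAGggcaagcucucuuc
mmu-miR-543-3p: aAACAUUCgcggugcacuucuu
mmu-miR-495-3p: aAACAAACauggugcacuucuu
mmu-miR-541-5p: aAGGGAUUcugauguuggucacacu
mmu-miR-379-3p: uAUGUAACaugguccacuaacu
mmu-miR-411-3p: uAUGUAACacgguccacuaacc
mmu-miR-758-3p: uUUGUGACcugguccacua
mmu-miR-134-5p: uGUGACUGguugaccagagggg
mmu-miR-409-5p: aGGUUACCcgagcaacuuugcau
mmu-miR-329-3p: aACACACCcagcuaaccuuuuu
mmu-miR-494-3p: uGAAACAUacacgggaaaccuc

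The 39 sequences held 38 different seeds, and the only shared one was AUGUAAC, in miR-379-3p and miR-411-3p, so the members are a cluster by position and not a seed family. These neighbours differ by 2 edits over their whole length. miR-381-3p and miR-300-3p differ by 3 edits, miR-495-3p and miR-543-3p by 4, and miR-376a-3p and miR-376b-3p by 3. miR-376b-5p is 1 edit from miR-376c-5p, and miR-299a-5p is 1 edit from miR-299b-5p, which is no member. How reads that match close relatives were assigned is not given in the sources used here, so the split of counts within these pairs is uncertain.

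Together the members held 4.93% of all miRNA counts, and 13 of them were among the 100 most abundant miRNAs. Levels are in CPM, the count scaled to a fixed total of miRNA counts per library, with TMM factors over the 44 libraries, and the order of members is an order of counted reads. Mean levels ran over a 1821-fold range within the cluster, from 7984 CPM for miR-381-3p to 4.39 CPM for miR-1197-3p. The 4 most abundant members (miR-381-3p, miR-543-3p, miR-300-3p and miR-541-5p) held 50.2% of the cluster's counts, and the top 8 held 74.2%. The 11 members averaging at least 1000 CPM held 81.3%, whereas 12 members averaged under 100 CPM.

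**Figure D1:**
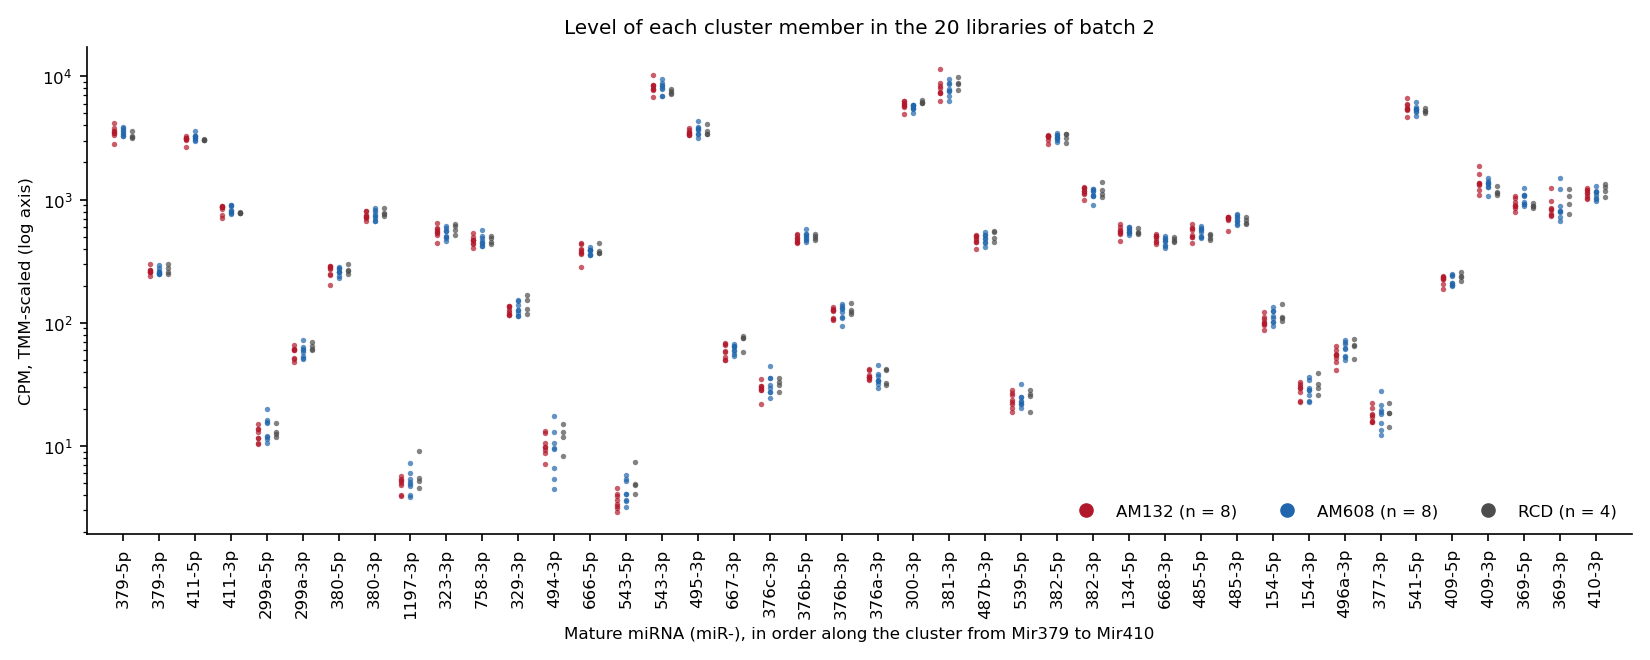
Level of each of the 42 members (x axis, in order from Mir379 to Mir410) in the 20 libraries of batch 2, in TMM-scaled CPM on a log axis, with 1 point per library (AM132 n = 8, AM608 n = 8, RCD n = 4). Neighbouring hairpins differ by orders of magnitude while the 3 groups overlap at nearly every member; at miR-300-3p the AM608 points lie below the RCD points.

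Abundant members came from hairpins before Mirg and from hairpins within it. Mir543 at chr12:109717258-109717333 and Mir381 at chr12:109726822-109726896 lie before Mirg, and Mir541 at chr12:109742409-109742498 lies in a Mirg intron. The scarce miR-1197-3p and miR-494-3p (14.4 CPM) come from hairpins before Mirg as well. Within batch 2, which holds all 3 groups, the members ranked by mean level form 41 neighbouring pairs, and in 23 of these the means were closer than 1 SD. miR-381-3p and miR-543-3p averaged 8188 ± 1216 and 8067 ± 860 CPM (SD, n = 20), and miR-381-3p was the higher of this pair in 9 of 20 libraries. miR-543-3p stood above miR-300-3p (5817 ± 397 CPM) in 20 of 20 libraries.

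The most abundant members were compared first by their levels in the 3 groups of batch 2. miR-381-3p, which contributes to activity-dependent dendrite growth in rodent neurons, averaged 8138 ± 1540 CPM in AM132, 7947 ± 1027 CPM in AM608 and 8769 ± 873 CPM in RCD libraries (SD, n = 8, 8 and 4). miR-543-3p, reported to lower N-cadherin in the mouse embryonic cortex, averaged 8279 ± 989 CPM in AM132, 8128 ± 874 CPM in AM608 and 7522 ± 297 CPM in RCD libraries. Both orders of groups lie within the spread between libraries. miR-300-3p averaged 5856 ± 447 CPM in AM132, 5589 ± 264 CPM in AM608 and 6194 ± 197 CPM in RCD libraries. miR-541-5p averaged 5617 ± 565 CPM in AM132, 5416 ± 420 CPM in AM608 and 5240 ± 176 CPM in RCD libraries. The other 4 of the top 8 are given in the same way. miR-379-5p, from the first hairpin of the cluster, averaged 3536 ± 389 CPM in AM132, 3546 ± 217.7 CPM in AM608 and 3314 ± 180 CPM in RCD libraries. miR-411-5p, from the second hairpin, averaged 3086 ± 172 CPM in AM132, 3225 ± 185 CPM in AM608 and 3060 ± 31.7 CPM in RCD libraries. The 4 RCD values of miR-411-5p were the most closely spaced of these. miR-495-3p, which can repress Bdnf, averaged 3493 ± 151 CPM in AM132, 3666 ± 349 CPM in AM608 and 3630 ± 323 CPM in RCD libraries. For miR-382-5p, from a hairpin that overlaps a Mirg exon, the means were 3191 ± 167 CPM in AM132, 3213 ± 180 CPM in AM608 and 3217 ± 243 CPM in RCD libraries.

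The 11 hairpins with both arms among the members differed in which arm was retained. The 5p arm gave 91.8% of the 2-arm level of miR-379, 78.7% of miR-154, 77.6% of miR-411, 77.1% of miR-376b and 73.9% of miR-382, and it was the higher arm in all 44 libraries for each of these 5. The 3p arm was the higher in all 44 libraries for miR-543 (5p share 0.077%), miR-409 (17.3%), miR-299a (22.1%), miR-380 (25.9%) and miR-485 (42.8%). For miR-369 the arms were near even, with a 5p share of 49.9% and the 5p arm higher in 27 of 44 libraries. These shares pool the batches, and some differed between batch 2 and the other batches, which was not tested. The 5p share was 18.3% in batch 2 and 26.1% in the others for miR-299a, and 14.6% and 19.3% for miR-409. For miR-382 it was 73.6% and 74.3%. Arms outside the member list were mostly scarce: of 35 further mature names from these hairpins and others of the cluster, 31 had counts, together 0.0663% of all miRNA counts. The exceptions were miR-329-5p at 246 CPM, above the member miR-329-3p at 171 CPM, and miR-376a-5p at 183.5 CPM, above miR-376a-3p at 34.99 CPM.

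Libraries held 3020192 to 5997234 miRNA counts, and the scarcest member, miR-1197-3p, had 6 to 62 counts per library, so its counting error is the largest. miR-132-3p, the target of the AM132 oligonucleotide, had 63.8 to 548 CPM (median 404) in AM132 and 523 to 781 CPM (median 665) in AM608 libraries of batch 2. In batches 1 and 3 it had 917 to 1325 CPM (median 1156) in AM132 and 1154 to 1460 CPM (median 1297) in AM608 libraries. Over the 3 batches its log2 difference was -0.46 ± 0.16 (SE, p = 0.00823), which did not pass the test across all miRNAs (edgeR adjusted p = 0.658). AM132 6 held the lowest of these values. In batch 2, 3 libraries stood apart by miRNAs of other tissues: miR-200a-3p reached 6786 CPM in AM132 6 and 2022 CPM in AM608 5, and miR-375-3p reached 14063 CPM in AM608 5 and 986 CPM in AM132 5, against at most 318 and 189 CPM in the other 41 libraries. The summed muscle list (miR-1a-3p, miR-133a-3p, miR-133b-3p and miR-206-3p) was 3144 CPM in AM132 6, against at most 423 CPM in AM132 libraries of batch 2 without these 3. Nothing says that the libraries of a group came from separate cages or litters, and p-values measure the spread between the libraries as labelled.

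The first comparison asked whether anti-miR-132 treatment of obese mice changed the cluster relative to the control oligonucleotide. It did not do so detectably for any member. With batch as a term in edgeR's quasi-likelihood test, 0 of 42 members passed an adjusted p of 0.05, beside 2 of 559 miRNAs tested (0.358%), and DESeq2 also called 0 members. At an unadjusted p under 0.05 there were 3 of 42 members and 22 of 559 miRNAs (3.94%). The median log2 difference was -0.01 over the members, with 18 positive and 24 negative, and 0.00 over all miRNAs tested. The 95% interval lay within a 1.5-fold change either way for all 42 members and within a 1.2-fold change for 33. In bulk tissue, fewer cells of a type and less RNA per cell cannot be told apart in any such difference.

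The members with the smallest p all had lower estimates in AM132. miR-376c-3p had 21.8 to 45.7 CPM (median 34.03) in AM132 libraries and 24.7 to 54.9 CPM (median 37.8) in AM608 libraries, a log2 difference of -0.17 ± 0.07 (SE, p = 0.0229, adjusted p = 0.908). The ranges overlapped over most of their length, although 15 of 16 AM132 libraries lay below the AM608 mean of their own batch. miR-667-3p had 38.04 to 68.6 CPM (median 50.4) in AM132 and 43.2 to 67.2 CPM (median 57.6) in AM608 libraries, with a log2 difference of -0.15 ± 0.07 (SE, p = 0.0274, adjusted p = 0.908). For this miRNA 12 of 16 AM132 libraries were below. miR-543-5p, the minor arm of its hairpin, had 2.56 to 5.54 CPM (median 3.98) in AM132 and 3.18 to 7.03 CPM (median 4.68) in AM608 libraries, with a log2 difference of -0.25 ± 0.12 (SE, p = 0.0382, adjusted p = 0.95). This rests on low counts, 10 to 38 per library over the 44 libraries.

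Within batches 1, 2 and 3 taken alone, 0 members passed in each. For miR-376c-3p the log2 difference of AM132 against AM608 in batches 1, 2 and 3 came to -0.15, -0.13 and -0.23, always in the same direction. For miR-667-3p the same quantity was -0.20, -0.06 and -0.26 in batches 1, 2 and 3. miR-543-5p did not keep its sign: its estimates were 0.031 in batch 1, -0.29 in batch 2 and -0.45 in batch 3. A test of whether the AM132 difference itself varied between batches called 0 of 42 members and 0 of 559 miRNAs (0%) at an adjusted p of 0.05, and 2 members (miR-382-3p and miR-409-5p) and 22 miRNAs (3.94%) at an unadjusted p under 0.05.

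**Figure D2:**
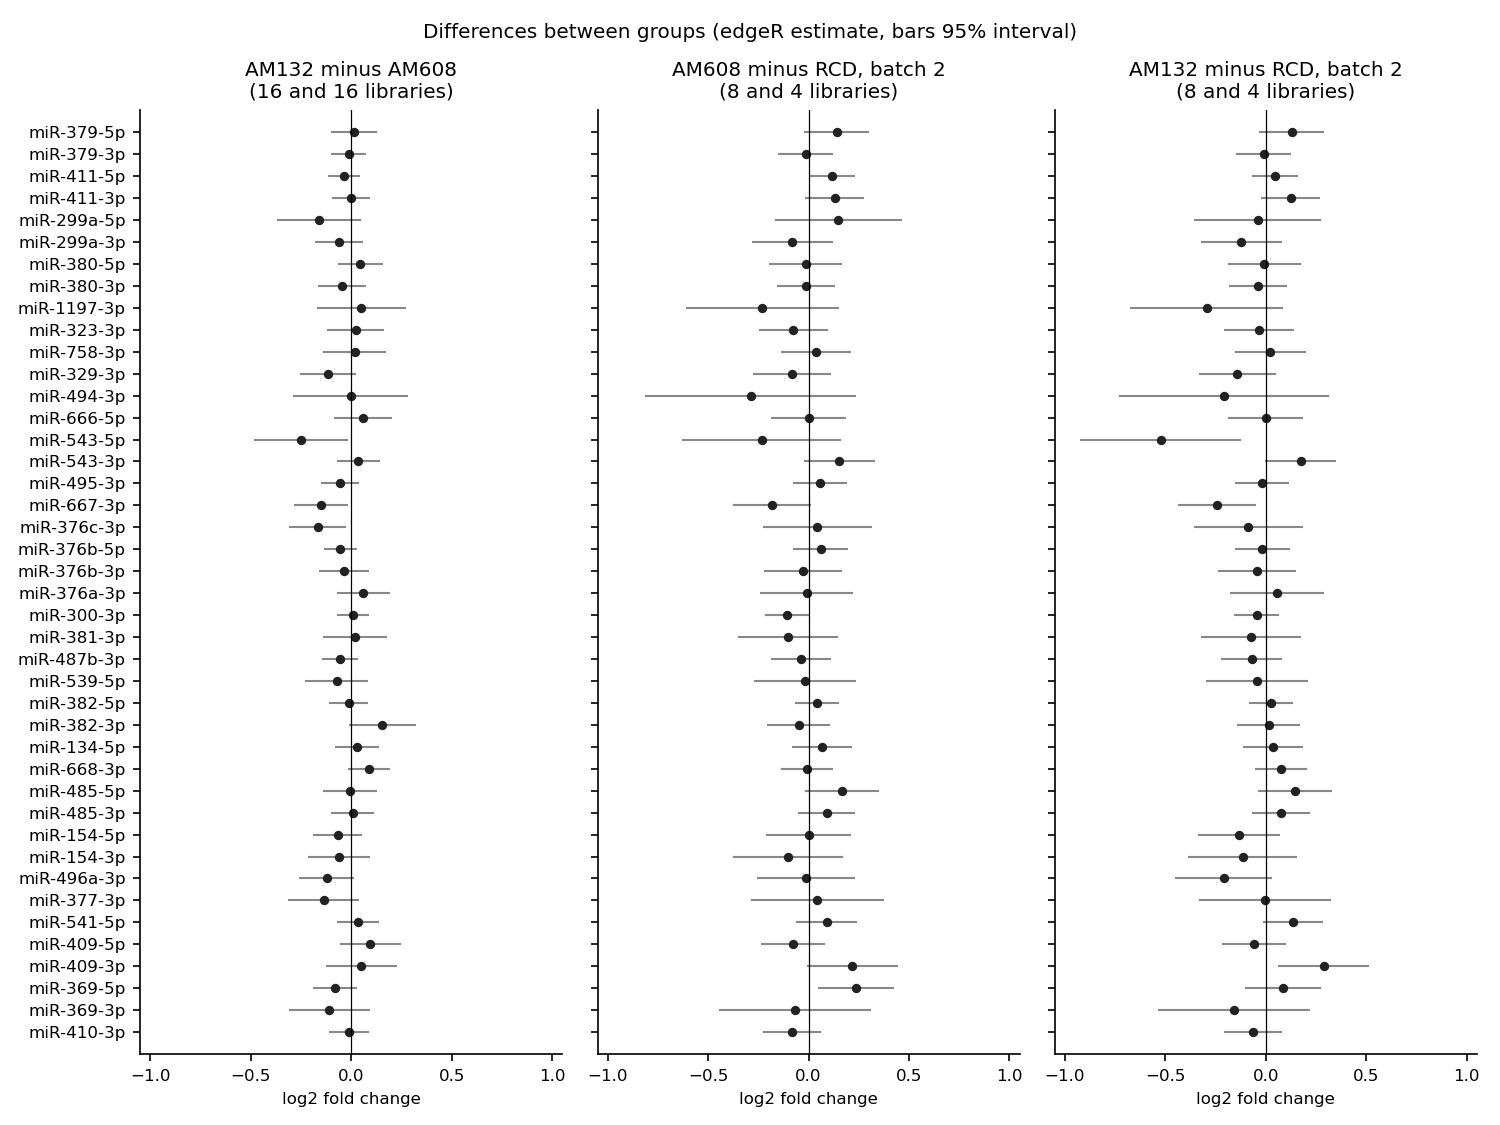
Log2 fold change of each member (points, edgeR; bars, 95% interval) in order along the cluster, for AM132 minus AM608 (16 and 16 libraries), AM608 minus RCD in batch 2 (8 and 4) and AM132 minus RCD in batch 2 (8 and 4). Estimates scatter around 0 in all 3 panels, with the widest intervals at the scarce members miR-494-3p, miR-543-5p and miR-1197-3p.

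Arm choice, which does not depend on how libraries are scaled, was compared as the log2 ratio of 5p to 3p counts. Of the 11 member hairpins 0 passed in AM132 against AM608, beside 0 of 159 hairpins tested (0%), and 1 member hairpin and 10 of the 159 (6.29%) had an unadjusted p under 0.05 (limma). That 1 hairpin was miR-543, whose log2 ratio was -10.50 ± 0.70 in AM132 and -10.25 ± 0.67 in AM608 libraries (SD, n = 16 each), a difference of -0.25 ± 0.12 (SE, p = 0.0408, adjusted p = 0.708). It carries the same low 5p counts as miR-543-5p above. The log2 ratio of miR-382 was 1.49 ± 0.15 in AM132 and 1.66 ± 0.40 in AM608 libraries, a difference of -0.17 ± 0.08 (SE, adjusted p = 0.714). Its 3p arm differed most in batch 3, averaging 482 CPM in AM608 and 697 CPM in AM132 libraries (n = 4 each). In the same order it averaged 800 and 772 CPM in batch 1, and 1111 and 1165 CPM in batch 2.

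The next comparisons set the obese groups against lean mice in batch 2 alone, the only batch that holds both. In AM608 against RCD 0 of 42 members passed, beside 0 of 599 miRNAs tested (0%), and 2 members and 27 miRNAs (4.51%) had an unadjusted p under 0.05. In AM132 against RCD 0 of 42 members passed, beside 0 of 599 (0%), and 3 members and 53 miRNAs (8.85%) had an unadjusted p under 0.05. DESeq2 called 0 members in both. The comparisons share the 4 RCD libraries and are not independent of each other. The 95% interval lay within a 1.5-fold change for 39 of 42 members in each comparison, and within 1.2-fold for 23 in AM608 against RCD and 19 in AM132 against RCD. The 3 with wider intervals were the scarce miR-494-3p, miR-543-5p and miR-1197-3p in both.

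The members nearest to a difference between AM608 and RCD came from the distal end of the cluster and from Mir411. miR-369-5p had 885 to 1238 CPM (median 1012) in AM608 libraries and 892, 889, 929 and 859 CPM in the RCD libraries, a log2 difference of 0.23 ± 0.09 (SE, p = 0.0169, adjusted p = 0.807). Here 7 of 8 AM608 libraries lay above the RCD mean. miR-411-5p had 2989 to 3595 CPM (median 3203) in AM608 and 3099, 3065, 3053 and 3022 CPM in RCD libraries, with a log2 difference of 0.12 ± 0.06 (SE, p = 0.0428, adjusted p = 0.807). The 4 RCD values of miR-411-5p are closely spaced and fall within the AM608 range. miR-409-3p had 1063 to 1495 CPM (median 1352) in AM608 and 1155, 1096, 1135 and 1289 CPM in RCD libraries, a log2 difference of 0.22 ± 0.11 (SE, p = 0.0571, adjusted p = 0.807).

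Of the 42 members 1 had non-overlapping AM608 and RCD values, beside 3 of 599 miRNAs (0.501%). In AM132 against RCD 0 members did, beside 3 of 599 (0.501%). miR-300-3p had 5055 to 5829 CPM (median 5622) in the 8 AM608 libraries and 6120, 6036, 6481 and 6138 CPM in the RCD libraries. Every AM608 value was below every RCD value, yet the log2 difference was only -0.11 (p = 0.059, adjusted p = 0.807). In AM132 libraries of the same batch miR-300-3p ran from 4911 to 6310 CPM (median 5889) and overlapped the RCD values. Its relative miR-381-3p ran from 6358 to 9520 CPM (median 7798) in AM608 libraries, and in the RCD libraries it had 9818, 8682, 8888 and 7690 CPM, so those groups overlapped.

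Between AM132 and RCD the smallest p belonged to miR-543-5p, at 2.91 to 4.54 CPM (median 3.52) in AM132 libraries and 4.81, 4.96, 7.44 and 4.08 CPM in the RCD libraries. Its log2 difference was -0.52 ± 0.19 (SE, p = 0.013, adjusted p = 0.532), and all 8 AM132 libraries lay below the RCD mean although the ranges overlapped. miR-409-3p had 1085 to 1872 CPM (median 1346) in AM132 libraries, against the RCD values given above, a log2 difference of 0.29 ± 0.11 (SE, p = 0.0146, adjusted p = 0.532). miR-667-3p had 49.7 to 68.6 CPM (median 58.3) in AM132 and 57.5, 74.6, 75.8 and 77.6 CPM in RCD libraries, a log2 difference of -0.24 ± 0.09 (SE, p = 0.0169, adjusted p = 0.532). All 8 AM132 libraries were below the RCD mean of miR-667-3p, and RCD 9 alone reached into their range.

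The large differences in the cluster lay between batches, within each group. In RCD libraries, 28 of 42 members passed between batch 4 and batch 2 (12 higher and 16 lower in batch 4), beside 330 of 598 miRNAs (55.2%; 26.4% higher and 28.8% lower). In AM132 libraries, 29 members passed between batch 2 and the mean of batches 1 and 3 (16 higher and 13 lower in batch 2), beside 342 of 598 miRNAs (57.2%; 30.8% higher and 26.4% lower). In AM608 libraries, 26 members passed in the same contrast (14 higher and 12 lower), beside 365 of 591 miRNAs (61.8%; 28.9% higher and 32.8% lower). The members' share was close to that of all miRNAs in AM608 and somewhat above it in RCD and AM132, and this excess was not tested. The labels do not say what differed between batches.

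**Figure D3:**
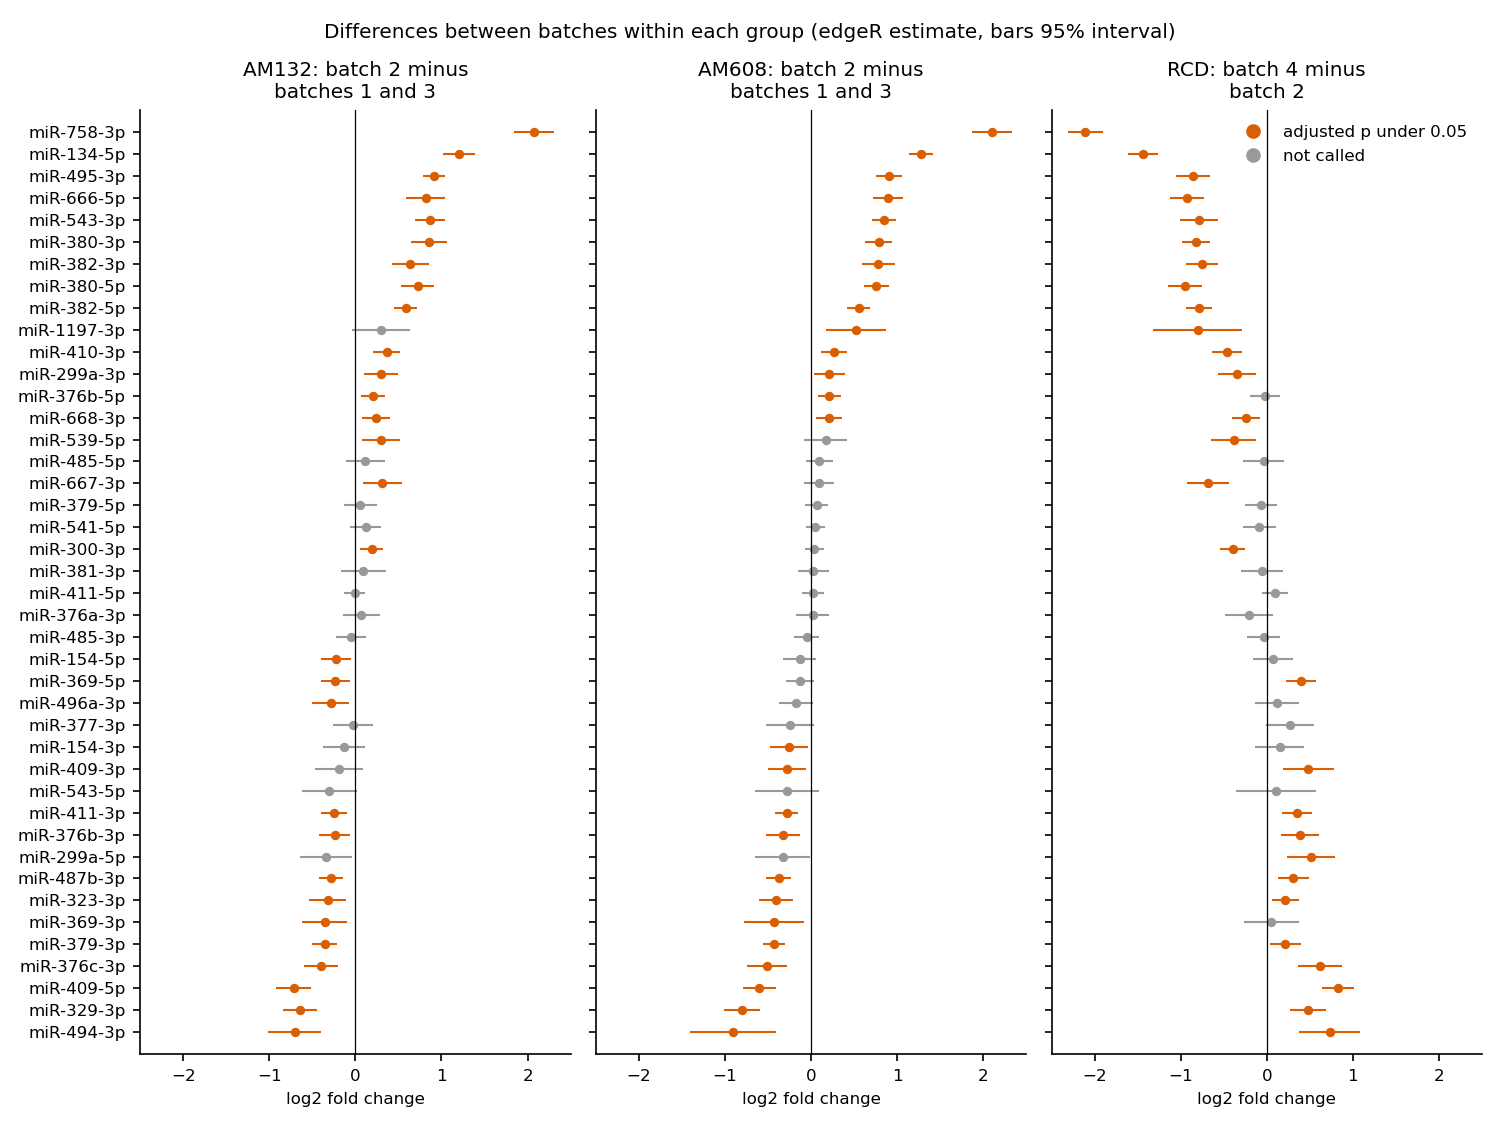
Log2 fold change of each member between batches within a group (points, edgeR; bars, 95% interval; orange, adjusted p under 0.05), for batch 2 minus batches 1 and 3 in AM132 and in AM608 and for batch 4 minus batch 2 in RCD. The RCD panel runs the other way because batch 2 is there the batch subtracted, and miR-758-3p is at the extreme of every panel.

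The same members set batch 2 apart in the 3 groups, whose libraries are disjoint. With batch 2 on the same side, 21 of 42 members passed in all 3 contrasts, 12 higher and 9 lower in batch 2, beside 253 of 582 miRNAs (43.5%; 21.8% higher and 21.6% lower), and 0 members passed with opposite sides. A further 12 passed in 1 or 2 contrasts and 9 in none, among them the abundant miR-381-3p, miR-541-5p, miR-379-5p and miR-411-5p. The 12 higher in batch 2 were both arms of miR-380 and of miR-382, miR-758-3p, miR-134-5p, miR-495-3p, miR-666-5p, miR-543-3p, miR-410-3p, miR-299a-3p and miR-668-3p. The 9 lower in batch 2 were miR-409-5p, miR-329-3p, miR-494-3p, miR-376c-3p, miR-376b-3p, miR-379-3p, miR-411-3p, miR-323-3p and miR-487b-3p. The arms of 1 hairpin could differ in their calls: miR-543-3p was higher while miR-543-5p passed in none, and miR-379-3p was lower while miR-379-5p passed in none. Median GC content was 46.4% in the 12 higher members and 45.5% in the 7 lower members with a sequence.

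miR-758-3p, at 19 nt the shortest of the 39 sequences, moved the most of the members. It had 406 to 539 CPM (median 468) in AM132 libraries of batch 2 and 84.5 to 150 CPM (median 103) in those of batches 1 and 3, a log2 difference of 2.08 ± 0.11 (SE, adjusted p = 6.88e-11). In AM608 libraries it had 419 to 561 CPM (median 453) in batch 2 and 79.9 to 140.4 CPM (median 95.9) in batches 1 and 3, a log2 difference of 2.10 ± 0.11 (SE, adjusted p = 2.86e-12). In RCD libraries it had 89.7 to 125 CPM (median 112) in batch 4 and 454, 433, 489 and 505 CPM in batch 2, a log2 difference of -2.11 ± 0.10 (SE, adjusted p = 2.44e-12). No library of batch 2 overlapped a library of another batch for this miRNA.

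miR-134-5p, the spine-size regulator, showed the next largest shift. It had 457 to 633 CPM (median 549) in AM132 libraries of batch 2 and 195 to 282 CPM (median 229) in batches 1 and 3, a log2 difference of 1.201 ± 0.09 (SE, adjusted p = 1.57e-09). In AM608 libraries it had 512 to 603 CPM (median 557) in batch 2 and 199 to 267 CPM (median 217) in batches 1 and 3, a log2 difference of 1.28 ± 0.07 (SE, adjusted p = 1.85e-12). In RCD libraries it had 174 to 227 CPM (median 205.9) in batch 4 and 529, 545, 538 and 591 CPM in batch 2, a log2 difference of -1.44 ± 0.08 (SE, adjusted p = 7.48e-11). Its groups did not overlap between batch 2 and the other batches either.

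Among the abundant members, miR-543-3p and miR-495-3p, which share most of their 3′ sequence, shifted by similar amounts. miR-495-3p had 3329 to 3776 CPM (median 3464) in AM132 libraries of batch 2 and 1615 to 2028 CPM (median 1822) in batches 1 and 3, a log2 difference of 0.92 ± 0.06 (SE, adjusted p = 6.12e-10). In AM608 libraries its log2 difference was 0.91 ± 0.07, and in RCD libraries, batch 4 against batch 2, it was -0.85. miR-543-3p had 6863 to 10334 CPM (median 8125) in AM132 libraries of batch 2 and 3902 to 5079 CPM (median 4359) in batches 1 and 3, a log2 difference of 0.87 ± 0.08 (SE, adjusted p = 4.97e-08). In AM608 its log2 difference was 0.85 ± 0.07 and in RCD, batch 4 against batch 2, -0.79 ± 0.11. For both miRNAs the AM132 values of batch 2 lay above those of batches 1 and 3 with no overlap. miR-382-5p had 1615 to 2007 CPM (median 1884) in batch 4 and 2892, 3394, 3170 and 3412 CPM in batch 2 of RCD, a log2 difference of -0.79 ± 0.07 (SE, adjusted p = 3.08e-08). miR-380-3p had 408 to 502 CPM (median 428) in batch 4 and 735, 779, 847 and 760 CPM in batch 2 of RCD, a log2 difference of -0.82 ± 0.08 (SE, adjusted p = 4.98e-08).

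**Figure D4:**
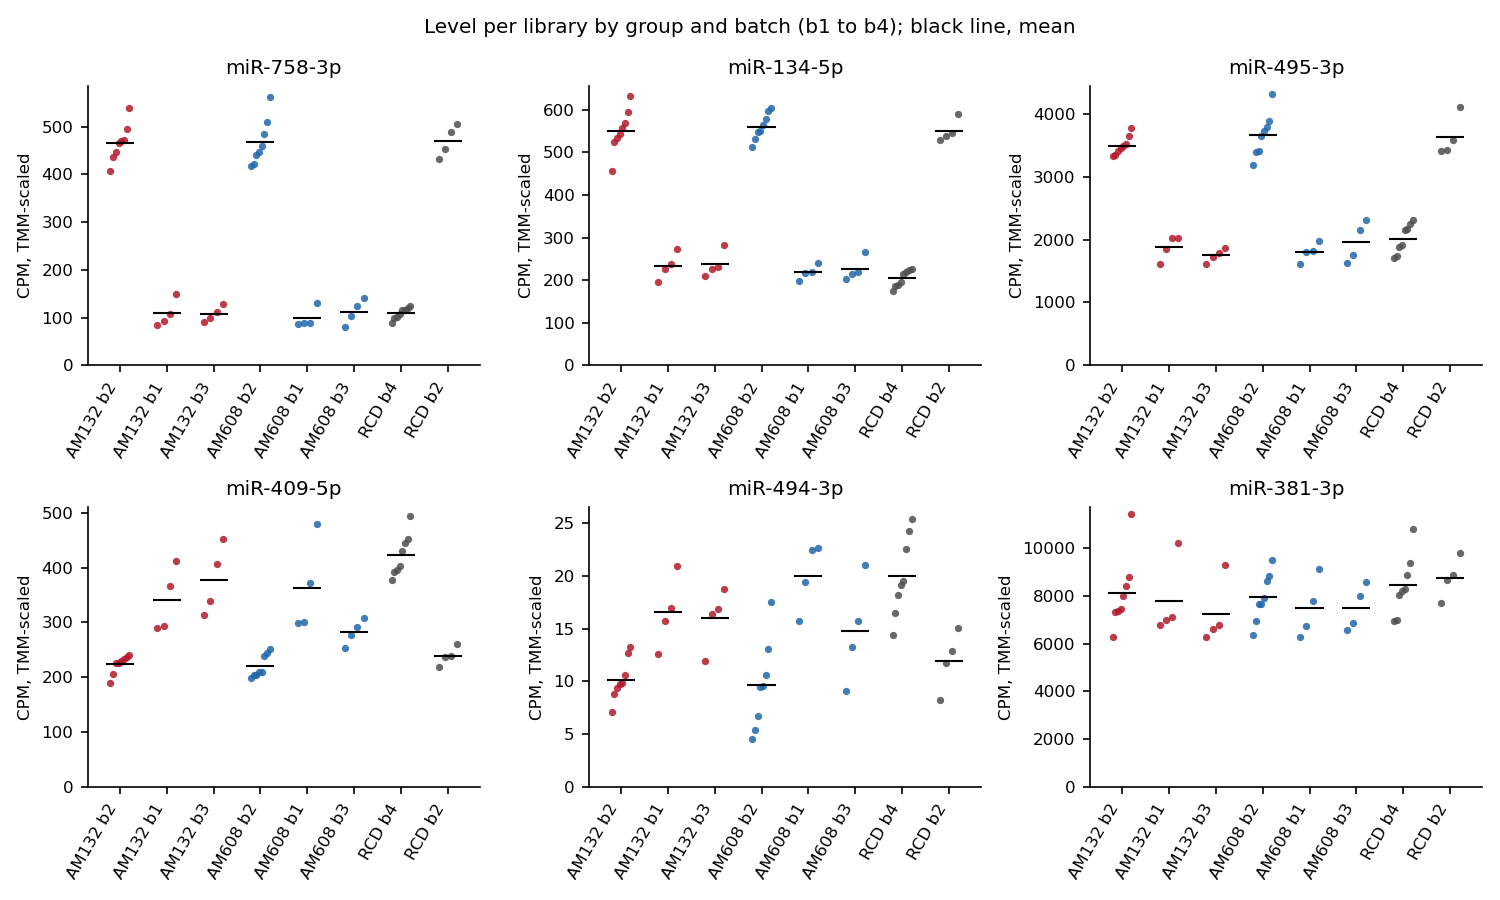
TMM-scaled CPM of 6 members in every library (points) by group and batch (b1 to b4), with the mean as a black line. miR-758-3p, miR-134-5p and miR-495-3p are high in the batch 2 libraries of all 3 groups, miR-409-5p and miR-494-3p are low there, and miR-381-3p, the most abundant member, is even.

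Of the members lower in batch 2, miR-409-5p, miR-329-3p and miR-494-3p had the largest differences in AM132 and AM608. miR-409-5p had 189 to 241 CPM (median 228) in AM132 libraries of batch 2 and 289.8 to 452 CPM (median 353) in batches 1 and 3, a log2 difference of -0.71 ± 0.10 (SE, adjusted p = 5.41e-06). In RCD libraries it had 377 to 494 CPM (median 417) in batch 4 and 238, 260.2, 219.4 and 237 CPM in batch 2, a log2 difference of 0.83 ± 0.09 (SE, adjusted p = 2.32e-07). Neither pair overlapped. In AM608 libraries miR-409-5p had 198 to 251 CPM (median 210.3) in batch 2 and 254 to 479 CPM (median 299.9) in batches 1 and 3, again with no overlap (log2 difference -0.60 ± 0.09, SE, adjusted p = 1.24e-05). miR-329-3p, which like miR-134-5p is regulated by neuronal activity, had 113 to 154 CPM (median 127) in AM608 libraries of batch 2 and 177 to 260.3 CPM (median 225) in batches 1 and 3, a log2 difference of -0.80 ± 0.10 (SE, adjusted p = 7.52e-07). Its ranges did not overlap in AM608, and its log2 difference was -0.64 ± 0.09 in AM132 and, batch 4 against batch 2, 0.48 ± 0.10 in RCD. miR-494-3p had 7.09 to 13.3 CPM (median 9.78) in AM132 libraries of batch 2 and 11.9 to 20.9 CPM (median 16.6) in batches 1 and 3, and here the ranges overlapped (log2 difference -0.71 ± 0.15, SE, adjusted p = 0.000448). Its log2 difference was -0.90 ± 0.24 in AM608 and, batch 4 against batch 2, 0.73 ± 0.17 in RCD. miR-376c-3p was lower in batch 2 of RCD as well, with 40.2 to 60.6 CPM (median 48.4) in batch 4 and 33.1, 31.5, 35.6 and 27.56 CPM in batch 2 (log2 difference 0.62 ± 0.12, SE, adjusted p = 0.000278). Smaller shifts passed too: miR-379-3p had a log2 difference of -0.36 ± 0.07 in AM132 and -0.43 ± 0.06 in AM608, and miR-487b-3p one of -0.37 ± 0.07 in AM608 (batch 2 minus batches 1 and 3), and miR-369-5p one of 0.40 ± 0.08 in RCD (batch 4 minus batch 2).

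Members with non-overlapping values were counted as well. In RCD 19 of 42 members did not overlap between batch 4 and batch 2 (7 higher and 12 lower in batch 4), beside 37% of miRNAs tested (18.6% higher and 18.4% lower). In AM132 9 members did not overlap between batch 2 and batches 1 and 3 (7 higher and 2 lower), beside 23.1% (13.9% higher and 9.2% lower). In AM608 there were 11 (8 higher and 3 lower), beside 30.3% (14.7% higher and 15.6% lower).

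The members' summed share of miRNA counts also followed batch. In batch 2 it was 4.52% to 6.48% (median 6.19%) in AM132, 5.84% to 6.47% (median 6.25%) in AM608 and 6.125%, 6.17%, 6.21% and 6.46% in RCD libraries. The AM132 minimum is AM132 6, and the other 19 libraries of batch 2 began at 5.84%. The median was 6.21% over the 20 libraries of batch 2, against 4.06% (range 3.498% to 4.60%) over the 24 libraries of batches 1, 3 and 4, with no overlap without AM132 6. Against TMM effective library sizes the gap was smaller, with a share of 4.63% to 6.26% (median 5.38%) in batch 2 and 3.90% to 5.05% (median 4.38%) in the other batches.

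**Figure D5:**
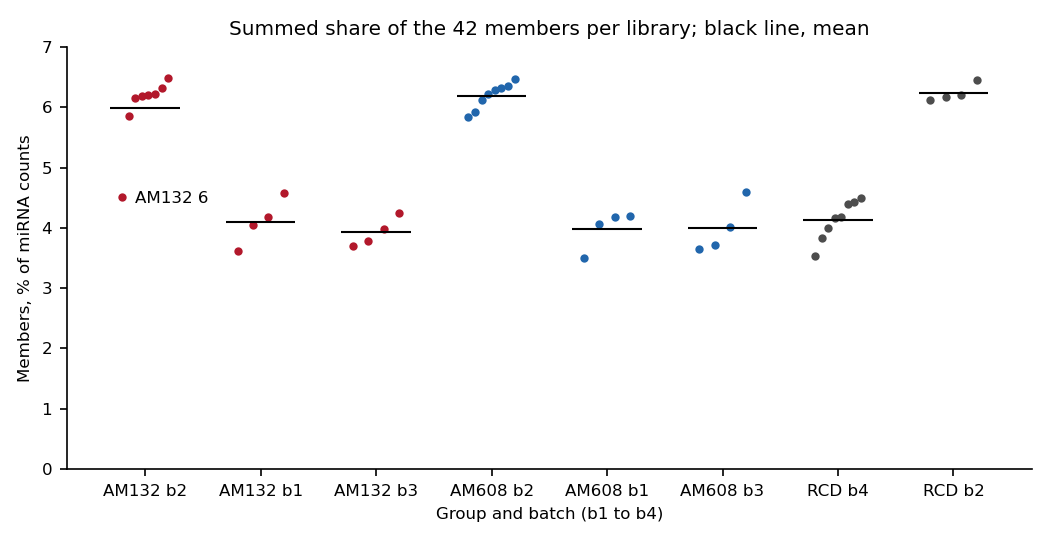
Summed counts of the 42 members as a percent of all miRNA counts in each library (points) by group and batch (b1 to b4), with the mean as a black line. Libraries of batch 2 lie above those of the other batches, except AM132 6 at 4.52%.

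Markers of several cell types, though not of all, moved with batch as well. The summed level of 10 neuronal miRNAs, among them miR-124-3p and miR-9-5p, was 128163 to 176340 CPM (median 146947) in batch 2 and 291489 to 422988 CPM (median 369668) in the other batches. The 12 miRNAs of the pituitary and epithelial list, mostly miR-7a-5p, summed to 94421 to 200162 CPM (median 124879) in batch 2 and 25988 to 63824 CPM (median 41624) in the others. This sum is largely the level of miR-7a-5p and does not by itself mark a cell type. Taken singly, all 12 had higher estimates in batch 2 in AM132 and in AM608, with 8 called in each. Of all miRNAs tested, 57.2% were called in AM132 (30.8% higher in batch 2) and 61.8% in AM608 (28.9% higher). In RCD the 12 were mixed: 7 were lower in batch 4 than in batch 2 (6 called) and 5 were higher (0 called). There 55.2% of all miRNAs tested were called (28.8% lower). The 4 oligodendrocyte miRNAs summed to 2020 to 3602 CPM (median 2869) in batch 2 and 668 to 2576 CPM (median 1204) in the others. The 10 choroid plexus and ciliated cell miRNAs summed to 4160 to 5376 CPM (median 4823) in batch 2 and 1981 to 12970 CPM (median 2850) in the others. The highest of these values, 12970 CPM, is RCD 2 of batch 4, where the batch median was 3014 CPM, and without RCD 2 the same 28 members passed between RCD batch 4 and batch 2. The 5 erythroid miRNAs had similar summed medians, at 520 to 1385 CPM (median 981) in batch 2 and 705 to 2936 CPM (median 1009) in the others. Taken singly, all 5 had lower estimates in batch 2 in AM132 (median log2 difference -0.16) and in AM608 (median -0.61). Their SE reached 0.28 and 0.45. In RCD 2 were higher and 3 lower in batch 4. edgeR called 0 of these 5 in any batch contrast. Of the 3 muscle miRNAs tested, it called 0 in AM132, 0 in AM608 and 2 in RCD, both lower in batch 4. Every miRNA of these lists had counts, and their part in the batch differences of the cluster was not tested. Between groups within batch 2, edgeR called 0 of the 10 neuronal miRNAs in AM132 or AM608 against RCD, with 2 in AM132 and 0 in AM608 at an unadjusted p under 0.05. In AM132 against AM608, 1 of the 9 choroid plexus and ciliated cell miRNAs tested was called, beside 2 of 559 miRNAs (0.358%). This was miR-34c-3p, which was higher in AM132 by 0.91 ± 0.16 on the log2 scale (SE, edgeR adjusted p = 0.000994). In the same comparison 0 of the 3 muscle miRNAs tested were called. All 3 were higher in AM132, 2 of them at an unadjusted p under 0.05.

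The rest of the Dlk1-Dio3 domain gave the same result for the groups. Of 35 other arms and hairpins of the cluster, 20 to 22 could be tested in the 3 group comparisons, and of 27 miRNAs from the proximal, Meg3-side portion of the domain, 23 to 25 could be tested, and edgeR called 0 of them in any. At an unadjusted p under 0.05 there were 0, 0 and 1 other arms and 1, 1 and 2 proximal miRNAs in AM132 against AM608, AM608 against RCD and AM132 against RCD. The smallest p in AM132 against AM608 were those of miR-665-3p (log2 difference -0.19 ± 0.09, SE, adjusted p = 0.95) among the proximal miRNAs and miR-376a-5p (-0.10 ± 0.06, SE, adjusted p = 0.95) among the other arms. The proximal miRNAs summed to 29184 to 36428 CPM (median 34510) in AM132, 31687 to 35658 CPM (median 33576) in AM608 and 32027 to 35780 CPM (median 33326) in RCD libraries of batch 2, with overlapping ranges.

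Between batches many of these neighbours passed as well. In RCD, batch 4 against batch 2, 7 of 22 other arms and 16 of 25 proximal miRNAs passed, beside 28 of 42 members and 55.2% of all miRNAs tested. In AM608, batch 2 against batches 1 and 3, 11 of 21 other arms and 14 of 25 proximal miRNAs passed, beside 26 members and 61.8% of all. In AM132 11 of 22 and 14 of 25 passed, beside 29 members and 57.2% of all. miR-377-5p was lower in batch 2 of AM132 by a log2 difference of -0.76 ± 0.13 (SE, adjusted p = 6.93e-05) and its partner arm, the member miR-377-3p, was called in none of the 3 contrasts. Among the proximal miRNAs miR-770-3p was higher in batch 2 of AM608 by 1.00 ± 0.09 on the log2 scale (SE, adjusted p = 1.3e-08), and miR-337-5p was lower by -0.87 ± 0.09 (SE, adjusted p = 3.18e-08).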

How the data were processed

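Small RNA of mouse hypothalamus (miRNeasy extraction, NEBNext small RNA libraries, NextSeq 500, per the labels' protocols) was deposited by the authors as a table of raw read counts per mature miRNA, not normalized. How reads were trimmed and aligned, and to which miRNA release, is not given in the sources used here. Each of the 44 columns carries a group and number found in 1 sample title, and 0 columns were left over. The deposited tRNA fragment counts were not used here.

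For the tests, TMM factors were computed after a low-count filter with a minimum count of 10 and a minimum total of 15. The filter was edgeR's filterByExpr by group, or by batch in the batch contrasts. miRNAs were tested over the whole table with edgeR 4.0.16 (quasi-likelihood F test, R 4.3.3), with Benjamini-Hochberg adjustment over all miRNAs tested and a threshold of 0.05. AM132 was compared with AM608 with batch as a term; RCD comparisons used batch 2 in 1 fit of 3 groups. Fold changes are log2 with SE from the F statistic. Levels and ranges are CPM with TMM factors computed over the 44 libraries from all rows, without the filter. Arm ratios (pseudocount 1, both arms averaging at least 10 counts) were tested with limma 3.58.1. Fits were tested on simulated data. DESeq2 1.42.0, RLE scaling, other filters and left-out libraries were alternatives. The closest pair of libraries still differed beyond counting noise (chi-square per degree of freedom 5.02), so none was merged.

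Hairpins were placed on GRCm38 with GENCODE vM21, and sequences are RefSeq's (GRCm38.p6). Members, gene lists and tests were chosen with earlier results of these data known. miR-132-3p and the markers are checks. Values are given for the 8 most abundant members, the 3 of smallest p per group comparison and the 4 of smallest p per direction among calls between batches; miR-300-3p, miR-382, miR-377 and the other arms named for their level were chosen after their values were seen.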

Additional observations from a re-analysis of the deposited data

Results flagged for a closer look

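Within groups of 4 to 8 libraries of 1 batch, 47 sets of values (the summed share and 13 named members) were examined for a library far from the rest, and 4 stood out, where chance flags about 1 in 20. Of these, 3 are AM132 6 among the 8 AM132 libraries of batch 2: its summed share of members was 4.52%, its miR-300-3p 4911 CPM and its miR-411-5p 2689 CPM, each the lowest of the group and far from the next. In AM132 6, 35 of 42 members lay below their own group mean, by 0.14 on the log2 scale on average. This is also the library with 3144 CPM of summed muscle miRNAs, 6786 CPM of miR-200a-3p and the lowest miR-132-3p; their part in the low values was not tested. AM608 3 had a mean deviation of the same size (39 of 42 members below) without being far from the rest in a named member. The fourth value is miR-667-3p in RCD 9, at 57.5 CPM, against 74.6, 75.8 and 77.6 CPM in RCD 10, 11 and 12; in RCD 9, 38 of 42 members lay below the group mean.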

How the results depend on the processing

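Counts of called members kept within 1.5 times of the values reported under every alternative run: RLE scaling, DESeq2, no low-count filter, a filter of 10 CPM, single batches, no batch term, all 44 libraries in 1 fit, and libraries left out. In the 3 group comparisons and the arm ratio they stayed at 0. Leaving out RCD 9, 10, 11 or 12 in turn gave 0 calls in both RCD comparisons and 25 to 27 between RCD batch 4 and batch 2. Leaving out RCD 2, an alternative chosen after seeing the data, gave 28. For the named members 251 alternative values kept their direction and side of the threshold and 1 did not: the log2 difference of miR-543-5p in AM132 against AM608 was 0.031 in batch 1 alone, and the cause was not tested. Against TMM effective library sizes the mean summed share in batch 2 was 5.39% in AM608 and 5.41% in RCD libraries, while by total counts it was 6.19% in AM608 and 6.24% in RCD libraries; TMM factors there ran from 0.976 to 1.24. With the replicate number as a block, 0 members were called in AM132 against AM608 and in both RCD comparisons, and 0 member hairpins for the arm ratio. The numbers were not shown to pair the samples: 11 of 16 AM132 and AM608 pairs correlated above 0.1 (median 0.21, range -0.36 to 0.56), and 6 of 16 AM132 libraries correlated best with their own number. Depth limits the scarce members most: miR-1197-3p had 6 to 62 and miR-543-5p 10 to 38 counts per library.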
